A study of Mus musculus with 7 samples.

Results

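The transcripts described here are Fth1 and Ftl1, which encode the heavy and light chains of ferritin, and Ftdc1 (ferritin domain containing 1), 3 of the 25908 entries with an FPKM value in every library. Fth1 and Ftl1 were taken by name, whereas Ftdc1 was selected on its measured levels, for a very large fall in MII oocytes and a rise with BYBX. Its values are therefore given as a description without a test. All 3 were among the 9202 entries tested, for which the mean of the 3 group means had to reach 1 FPKM.

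Mouse oocytes were sequenced by Smart-seq2 in 7 libraries of 10 oocytes each. The females were 4 weeks old, on a C57BL/6 background and primed with PMSG, a gonadotropin that makes follicles grow. The GV group (2 libraries, genotype label Control, treatment label NO) holds fully grown oocytes arrested with an intact germinal vesicle, and the study's methods name DMSO for its control oocytes too. The MII group (3 libraries, genotype label Control) holds oocytes matured to metaphase II with the solvent DMSO. The MII+BYBX group (2 libraries, genotype label Treat, which here marks a treatment and not an allele) was labelled MII and cultured with BYBX, a small-molecule ligand of RNA G-quadruplexes whose dose is not named in the methods of these libraries. The study reports that BYBX lowered the rate of first polar body release, a step of maturation, and that treated oocytes had abnormal spindles. Whether the sequenced MII+BYBX oocytes matched the MII group in stage was not tested. The labels do not say whether libraries of a group came from separate animals or cultures, so p-values measure only the spread between these libraries.

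Ferritin is a hollow protein shell that stores iron in a form that does little harm to the cell. Its heavy chain (Fth1) oxidises incoming ferrous iron, and its light chain (Ftl1) helps the iron core to form. Both mRNAs carry a hairpin near the cap, the iron-responsive element, to which iron regulatory proteins bind when iron is scarce, and the bound mRNA is translated little. Ftdc1 and its neighbour Ftdc2 are annotated as genes with a ferritin domain. In a fully grown oocyte transcription has stopped, so mRNA levels during maturation depend on the stored maternal RNA and on its adenylation and decay.

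All 4 transcripts are short. In GENCODE vM21 on GRCm38 the Ftdc1 transcript (listed there as Gm813) lies on the minus strand of chromosome 16 between 58613675 and 58616978 and has 4 exons. It is 713 bases long, with a coding sequence of 531 bases between a 5′ UTR of 35 and a 3′ UTR of 147. Ftdc2 (listed there as E330017A01Rik) lies next to it on the same strand, between 58635167 and 58638739, with a transcript of 1108 bases. The Fth1 transcript spans 9982646 to 9985098 on the plus strand of chromosome 19 and has 929 bases. The Ftl1 transcript spans 45457944 to 45459884 on the minus strand of chromosome 7 and has 968 bases. The longest coding transcripts of the tested genes had a median length of 2997 bases. Of these, 1.7% were shorter than the Ftdc1 transcript, 4.7% shorter than that of Fth1 and 5.3% shorter than that of Ftl1. The 4 transcripts described were taken by RefSeq accession and not by length, so these shares compare unlike choices of transcript. The GC content was 41.5% in Ftdc1 and 41.2% in Ftdc2, against 53.4% in Fth1, 58.1% in Ftl1 and a median of 49.6%.

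The letters of an iron-responsive element set the classical ferritins apart from Ftdc1. The search on the sense strand of the 5′ UTR required a C, 5 bases, the loop CAGTGN and 5 more bases that pair with the first 5 (G:U pairs allowed). It matched 9 of the 8732 tested transcripts with a 5′ UTR (0.1%), Fth1 and Ftl1 among them, and it matched neither Ftdc1 nor Ftdc2. The matched windows, with the loop in capitals, lie at chr19:9982732-9982761 (plus strand) and at chr7:45459778-45459807 (minus strand), both in the 5′ UTR and both in mm10 (GRCm38) coordinates.
Fth1: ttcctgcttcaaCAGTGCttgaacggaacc
Ftl1: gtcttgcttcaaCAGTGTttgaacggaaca
The polyadenylation signal is shown because tails are shortened or lengthened during maturation and reverse transcription was primed with oligo-dT. The letters AATAAA, in capitals, stood within the last 50 bases of Ftdc1 (chr16:58613682-58613711, minus strand), Fth1 (chr19:9985059-9985088, plus strand) and Ftl1 (chr7:45457950-45457979, minus strand), in the 3′ UTR of each.
Ftdc1: tctcattgatgaaaAATAAAtctgttgtgc
Fth1: gtaccatttcttcaAATAAAgaattttggt
Ftl1: ttggaccaagtaaaAATAAAgctttttgag
The same letters stood in the last 50 bases of 64.4% of the tested transcripts and not in those of Ftdc2. The cytoplasmic polyadenylation letters TTTTAT were in the last 100 bases of none of the 4 transcripts, against 15.5% of all tested ones. A predicted G-quadruplex motif (4 stretches of 3 or more G, separated by 1 to 7 bases, on the sense strand) was in none of the 4, against 18.8%. That share is over the longest coding transcripts, with a median of 2997 bases, whereas the 4 transcripts have 713 to 1108 bases. A longer sequence offers more places for a match, so the absence cannot be weighed against that share. These matches describe letters in an annotated transcript and show no binding or folding.

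The coding sequences differed widely. Fth1 and Ftl1 were identical at 63.4% of 528 aligned bases. Ftdc1 was identical to Ftdc2 at 52.7% of 516 aligned bases and to Fth1 at 49.6% of 518. Ftdc1 and Ftdc2 shared no stretch of 50 bases with an annotated transcript of another gene. Of the 50-base windows of Fth1, 6.6% (58 of 880) recurred in another annotated gene, the copy Gm6977. Of those of Ftl1, 90.6% (833 of 919) recurred in transcripts of 17 other genes, pseudogene copies such as Ftl1-ps1 and Ftl2-ps among them, and 70.0% of its 150-base windows (573 of 819) did so in 5. The study kept uniquely mapped reads, so the level of Ftl1 is uncertain, as is any level comparison of it with Fth1.

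FPKM (fragments scaled by transcript length and by the mapped fragments of the library) are corrected for length, so levels of different genes can be set side by side. The deposited values were further scaled to an ERCC spike-in, synthetic RNA added in equal amount to each lysate. They summed to between 402113 and 489569 FPKM in GV, between 109732 and 127254 FPKM in MII and between 201482 and 246710 FPKM in MII+BYBX. These sums did not overlap between groups. The share of all entries whose groups do not overlap was not counted, so a lack of overlap is given below only as a description. Relative to GV, the median tested entry differed by -1.83 in log2(FPKM + 1) in MII and by -0.99 in MII+BYBX, and each difference of a member is therefore also given relative to the median. With every library set to the same total the median shifted to -0.56 and -0.17, and with every library centred on its median log2 value it was 0.47 and 0.04. The read depth behind these values is unknown. The 8 oocyte markers (Zp1, Zp2, Zp3, Gdf9, Bmp15, Nlrp5, Ooep and Oosp1) summed to 11219 to 13544 FPKM in GV, 2428 to 3135 FPKM in MII and 5712 to 6884 FPKM in MII+BYBX. The 10 granulosa and cumulus markers summed to 6.37 to 12.6 FPKM in GV, 2.11 to 2.27 FPKM in MII and 2.92 to 3.25 FPKM in MII+BYBX, with 7 of 10 under 1 FPKM in every library. Erythrocyte markers (5) summed to at most 1.13 FPKM and macrophage markers (5) to at most 1.73 FPKM, and 2 of the macrophage markers were at 0 throughout. Each library held 10 oocytes, and fewer contributing cells and less RNA per cell cannot be told apart in it, nor can a shortened poly(A) tail and a lost transcript.

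Ftdc1 was among the most abundant transcripts of the GV oocyte and nearly disappeared from the MII libraries. Its level was 1782 and 1925 FPKM in the GV libraries, 2.67, 6.10 and 3.90 FPKM in the MII libraries, and 521 and 331 FPKM in the MII+BYBX libraries. The 3 groups did not overlap, with every GV library highest and every MII library lowest. By rank it was the 23rd and 14th most abundant entry in GV, the 3639th, 2436th and 3191st in MII, and the 56th and 78th in MII+BYBX. The mean was 1854 ± 101 FPKM in GV (SD, n = 2), 4.23 ± 1.74 FPKM in MII (SD, n = 3) and 426 ± 134 FPKM in MII+BYBX (SD, n = 2). The MII mean was 0.228% of the GV mean, a 439-fold lower level, and the MII+BYBX mean was 23.0% of it and 101-fold above that of MII. These values are why the gene was picked. On the log2(FPKM + 1) scale the difference was -8.52 between MII and GV, 6.37 between MII+BYBX and MII, and -2.15 between MII+BYBX and GV. No tested entry had a lower first difference or a higher second one. Relative to the median entry, the 3 differences were -6.69, 5.53 and -1.17.

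**Figure D1:**
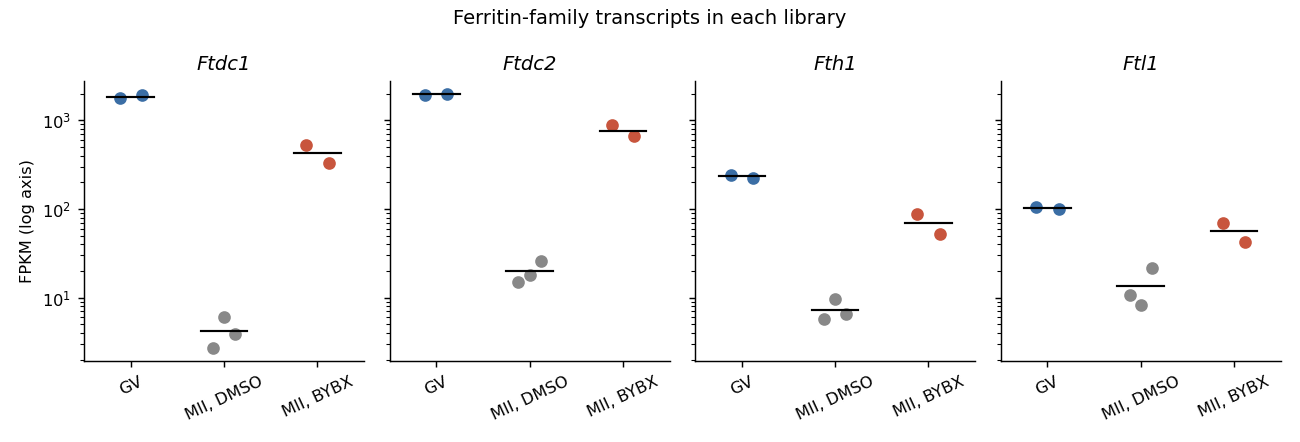
Level of Ftdc1, Ftdc2, Fth1 and Ftl1 in each library (vertical axis, FPKM on a log scale) for the groups GV (2 libraries), MII with DMSO (3) and MII with BYBX (2). Points are libraries and bars are group means. Ftdc1 runs from 1782 and 1925 FPKM in GV to between 2.67 and 6.10 FPKM in MII, whereas Ftl1 runs from 105 and 100.2 FPKM to between 8.23 and 21.8 FPKM.

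Ftdc2, the neighbouring gene with a ferritin domain, had a similar level in GV oocytes and was also lower in MII. It is not one of the 3 chosen transcripts and is included as a member of the family. Its level was 1923 and 1996 FPKM in GV, 15.2, 18.05 and 26.2 FPKM in MII, and 877 and 659 FPKM in MII+BYBX, with no overlap between groups. In MII it kept 1.01% of the GV mean and in MII+BYBX 39.2%. It was lower in MII than in GV by a log2 difference of -6.59 (SE 0.27, limma adjusted p = 2.8e-10), and 39 of the 9202 tested entries had a lower difference. It was higher in MII+BYBX than in MII by 5.23 (SE 0.27, limma adjusted p = 2.4e-08), with 10 entries above it. Against GV, the MII+BYBX libraries were lower by -1.36 (SE 0.30, limma adjusted p = 0.0013), a call lost with libraries set to the same total (-0.37, limma adjusted p = 0.26) or centred on their median (-0.34, limma adjusted p = 0.32).

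The ratio of Ftdc1 to Ftdc2 within a library does not depend on the factor by which that library was scaled. It was 0.927 and 0.965 in GV, 0.176, 0.338 and 0.149 in MII, and 0.594 and 0.503 in MII+BYBX. The ratio was thus near 1 in GV, lowest in every MII library and between them with BYBX. Since Ftdc1 was picked for its change, no test is given for this ratio. Other listed genes within 100 kb were far less abundant. Cldnd1, a claudin-domain gene, was at 31.4 and 19.6 FPKM in GV, 1.36 to 1.89 FPKM in MII, and 8.55 and 8.90 FPKM in MII+BYBX. Cpox, an enzyme of haem synthesis, was at 2.90 and 4.12 FPKM in GV and at 1.24 to 1.78 FPKM in the other 5 libraries. St3gal6, a sialyltransferase, was at 5.67 and 3.20 FPKM in GV and under 0.1 FPKM in MII, and Gpr15, a G protein-coupled receptor, did not exceed 0.025 FPKM.

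Fth1, the ferroxidase chain, was lower in MII than in GV and stood in between with BYBX. It was at 241 and 225 FPKM in GV, 5.70, 9.68 and 6.47 FPKM in MII, and 86.9 and 51.8 FPKM in MII+BYBX. The groups did not overlap, and neither did the summed FPKM of the groups. The mean was 233 ± 11.1 FPKM in GV (SD, n = 2), 7.28 ± 2.11 FPKM in MII (SD, n = 3) and 69.3 ± 24.8 FPKM in MII+BYBX (SD, n = 2), so MII kept 3.12% of the GV mean and MII+BYBX 29.7%. Between MII and GV the log2 difference was -4.85 (SE 0.30, limma adjusted p = 3e-09), or -3.02 relative to the median entry. Here 88.3% of all tested entries were called lower and 0.272% higher, so the size of the difference is given beside those of other entries. Of the 9202 entries 412 (4.48%) had a lower difference, and of the 870 entries with at least 100 FPKM in GV, whose median was -3.04, 212 did.

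With BYBX the Fth1 level was 9.52-fold that of MII. The log2 difference was 3.07 (SE 0.30, limma adjusted p = 1.2e-06), in a comparison in which 65.2% of entries were called higher and 0.0326% lower, and 400 entries had a higher one. Relative to the median entry the difference was 2.23. Of the 870 entries with at least 100 FPKM in GV, whose median here was 1.66, 210 had a higher difference. Both this comparison and that with GV use the same 3 MII libraries, so their sizes are not independent of each other. The MII+BYBX libraries remained below GV by -1.78 (SE 0.32, limma adjusted p = 0.00037), where 69.2% of entries were called lower and 0.315% higher. This last call was lost with libraries set to the same total (-0.80, limma adjusted p = 0.059) or centred on their median (-0.76, limma adjusted p = 0.068). The other 2 calls of Fth1 held under both scalings, at -3.06 and -2.55 for MII against GV and at 2.27 and 1.79 for MII+BYBX against MII.

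Ftl1, the light chain, had the smallest fold difference of the 3. It was at 105 and 100.2 FPKM in GV, 10.8, 8.23 and 21.8 FPKM in MII, and 70.4 and 42.0 FPKM in MII+BYBX. The groups did not overlap, and the third MII library stood above the other two. Its mean was 103 ± 3.46 FPKM in GV (SD, n = 2), 13.6 ± 7.21 FPKM in MII (SD, n = 3) and 56.2 ± 20.1 FPKM in MII+BYBX (SD, n = 2), which is 13.3% and 54.8% of GV. The log2 difference between MII and GV was -2.93 (SE 0.36, limma adjusted p = 3e-06), or -1.10 relative to the median entry, with 2292 entries lower. Among the 870 entries abundant in GV, 446 were lower, so Ftl1 lay near their middle. With BYBX it was 4.13-fold higher than in MII, a log2 difference of 2.03 (SE 0.36, limma adjusted p = 0.00024) and 1.2 above the median entry. Among the same 870 entries, whose median here was 1.66, 353 had a higher difference.

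Centring each library on its median ended both calls of Ftl1, with -0.63 (limma adjusted p = 0.12) for MII against GV and 0.75 (limma adjusted p = 0.079) for MII+BYBX against MII. Between MII+BYBX and GV the difference of Ftl1 was -0.90 (SE 0.39, limma adjusted p = 0.054), which did not pass the threshold and lay 0.09 above the median entry. The sign of this difference turned with libraries set to the same total (0.08) or centred on their median (0.12). It passed the threshold without MII+BYBX replicate 1 (-1.27, limma adjusted p = 0.023) and without any 1 of the 3 MII libraries (-0.90, with limma adjusted p = 0.022, 0.037 and 0.022), and it was -0.54 without MII+BYBX replicate 2 (limma adjusted p = 0.32).

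**Figure D2:**
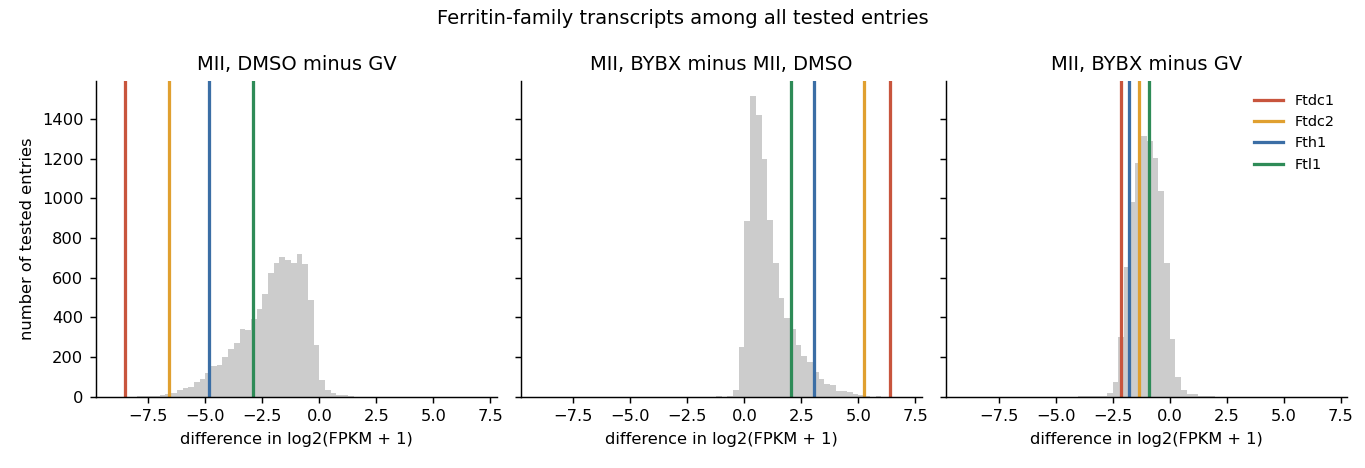
Differences in log2(FPKM + 1) of the 9202 tested entries (grey, number of entries per bin) in the 3 comparisons, with Ftdc1, Ftdc2, Fth1 and Ftl1 as coloured lines. In MII minus GV the lines stand at -8.52, -6.59, -4.85 and -2.93 against a median of -1.83, and in MII+BYBX minus GV they stand at -2.15, -1.36, -1.78 and -0.90 against a median of -0.99, with 1.88% of entries below Ftdc1 and 54.9% below Ftl1.

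The transcripts of the 2 ferritin chains were compared as a ratio of FPKM within libraries, where the scaling of a library cancels. Ftl1 stood to Fth1 at 0.436 and 0.445 in GV, at 1.90, 0.850 and 3.37 in MII, and at 0.811 and 0.812 in MII+BYBX. Heavy-chain FPKM exceeded light-chain FPKM in every GV and MII+BYBX library and in 1 of the 3 MII libraries. The level of Ftl1 is uncertain because of its copies, so which transcript was in excess is uncertain too. The groups did not overlap, although the second MII library (0.850) came close to the MII+BYBX libraries. For the tests, 1 FPKM was added to each gene on the log2 scale, so the scaling no longer cancels fully. On that scale the ratio was higher in MII than in GV by 1.92 (exact two-sided permutation p = 0.2, where 0.1 is the smallest possible). It was lower in MII+BYBX than in MII by -1.04 (exact permutation p = 0.2) and higher in MII+BYBX than in GV by 0.88 (exact permutation p = 0.33, the smallest that 2 against 2 libraries allow). Adjusted over these 3 comparisons by Benjamini-Hochberg, the exact permutation p-values were 0.3, 0.3 and 0.33. The design could not reach 0.05 for any of them.

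Ftdc1 outweighed Fth1 in 2 of the 3 groups. It stood to Fth1 at 7.39 and 8.54 in GV and at 5.99 and 6.40 in MII+BYBX, and at 0.469, 0.630 and 0.603 in MII. As a share of the summed FPKM of a library, Ftdc1 took 0.364% and 0.479% in GV, 0.00244% to 0.00494% in MII, and 0.211% and 0.164% in MII+BYBX. The share of Fth1 was 0.0492% and 0.0560% in GV, 0.00509% to 0.00783% in MII, and 0.0352% and 0.0257% in MII+BYBX. The share of Ftl1 did not separate GV from MII+BYBX, at 0.0215% and 0.0249% in GV, 0.00666% to 0.0171% in MII, and 0.0286% and 0.0209% in MII+BYBX.

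**Figure D3:**
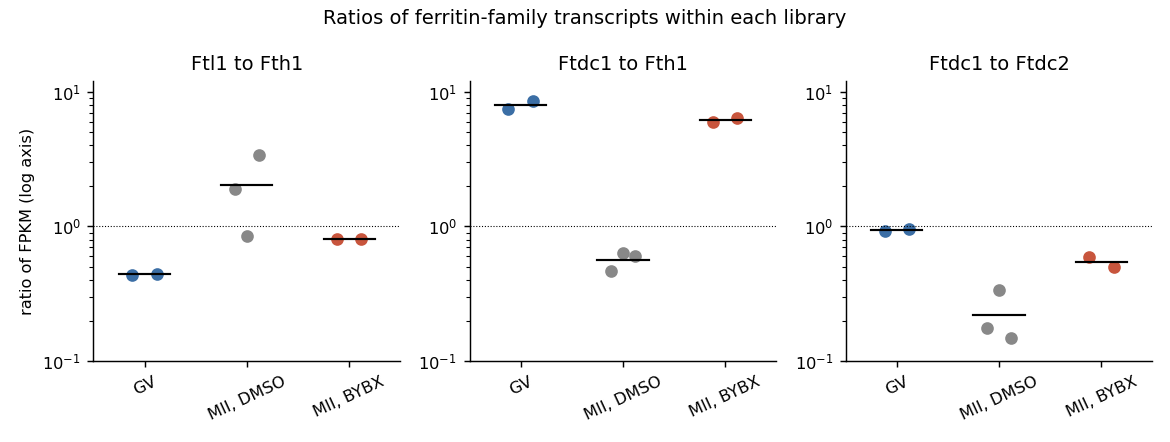
Ratio of FPKM within each library (vertical axis, log scale) for Ftl1 to Fth1, Ftdc1 to Fth1 and Ftdc1 to Ftdc2 in GV, MII with DMSO and MII with BYBX. Points are libraries and bars are group means. Ftl1 to Fth1 is lowest in GV (0.436 and 0.445), and both ratios of Ftdc1 are lowest in MII.

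The rest of the ferritin family was at or near 0. The mitochondrial ferritin Ftmt and the X-linked Fthl17d and Fthl17e were listed at 0 in every library. Fthl17a reached at most 0.200 FPKM, Fthl17b 0.0222 FPKM, Fthl17c 0.0278 FPKM and Fthl17f 0.294 FPKM. At these levels no comparison between the groups was made.

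The entries with the profile most like each member were sought by the root mean square difference over the 7 libraries in log2(FPKM + 1) relative to the GV mean. For Ftdc1 these were Rps13 (0.56), Speer5-ps1 (0.57), Fam162a (0.59), Timm17a (0.60) and Paip2 (0.63), all at 292 to 632 FPKM in GV and at most 2.09 FPKM in MII by their means. Ftdc2 was the 40th nearest to Ftdc1 (1.36), Fth1 the 388th (2.41) and Ftl1 the 2409th (3.75). For Fth1 the nearest were Hmgn1 (0.10), Rpl22l1 (0.12), Asnsd1 (0.14), Pqbp1 (0.15) and Vps25 (0.15). For Ftl1 they were Fam189b (0.19), Pcbd2 (0.20), Rnaseh1 (0.21), Cfl1 (0.21) and Clptm1 (0.22). No member was thus among the nearest 5 of another. The likeness is a description across libraries that share their scaling. It also depends on the 1 FPKM added, which shrinks differences of entries with low values. Of the entries nearest to Fth1 (MII mean 7.28 FPKM), the MII means were 8.88 FPKM for Hmgn1, 0.930 for Rpl22l1, 0.384 for Asnsd1, 1.12 for Pqbp1 and 2.37 for Vps25. That of Fam189b was 0.783 FPKM. Likeness on this scale is therefore not likeness in fold difference.

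The other genes of iron handling were followed in a list of 79 genes, of which 53 were tested. In MII against GV 44 of the 53 were lower, 1 was higher and 8 did not pass the test, a share of 83.0% lower beside 88.3% of all entries. Their median difference was -1.74, beside -1.83 over all entries. In MII+BYBX against MII 34 were higher and none lower (also none at an unadjusted limma p under 0.05), a share of 64.2% beside 65.2%, with a median of 0.88 beside 0.84. In MII+BYBX against GV 36 were lower and 1 higher, a share of 67.9% beside 69.2%. The shares and medians of the list lay close to those of all entries. With libraries set to the same total, 27 iron genes were called lower and 12 higher in MII against GV, and with median centring 16 and 24, while 49.5% and 26.7% of all entries were called lower and 23.3% and 48.8% higher. In MII+BYBX against MII setting the same total gave 8 lower and 25 higher (15.1% and 47.2%, beside 8.22% and 39.9% of all entries), and median centring 20 lower and 12 higher (37.7% and 22.6%, beside 43.9% and 18.4%). In MII+BYBX against GV the same total gave 6 lower and 4 higher (11.3% and 7.55%, beside 13.3% and 5.3% of all entries), and median centring 6 lower and 7 higher (11.3% and 13.2%, beside 13.6% and 15.2%).

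Most genes that load ferritin or send it to breakdown differed by less than its chains, with Pcbp3 (-3.35) the one beyond Ftl1. Of 6 tested, 4 were called lower in MII against GV and 1 was called higher in MII+BYBX against MII, where 88.3% and 65.2% of all entries were. Pcbp1, an iron chaperone that delivers iron to ferritin, was at 99.2 and 162 FPKM in GV, 39.0, 130.3 and 104.5 FPKM in MII, and 199 and 48.7 FPKM in MII+BYBX. The libraries of all 3 groups overlapped, and the log2 difference between MII and GV was -0.64 (limma adjusted p = 0.28). Ncoa4, the receptor that carries ferritin to autophagy, had means of 59.2 FPKM in GV and 25.8 FPKM in MII and a difference of -1.11 (limma adjusted p = 0.01), which without GV replicate 1 was -0.55 (limma adjusted p = 0.24) and which did not pass the test when no filter was set (limma adjusted p = 0.062). Pcbp2, a second iron chaperone, was at -1.30 (limma adjusted p = 0.022), and its call was lost without GV replicate 1 (-1.71, limma adjusted p = 0.064) or GV replicate 2 (-0.88, limma adjusted p = 0.28), and also when no filter was set (limma adjusted p = 0.13). Herc2, a ubiquitin ligase, did not pass the test (limma adjusted p = 0.11).

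Of the iron regulatory proteins, Aco1 was lower in MII and Ireb2 did not pass the test. Aco1, which is an aconitase when iron is plentiful and binds iron-responsive elements when it is not, was at 24.4 and 12.2 FPKM in GV, 0.661, 0.486 and 0.660 FPKM in MII, and 4.62 and 5.01 FPKM in MII+BYBX, without overlap. Its difference between MII and GV was -3.52 (limma adjusted p = 2.5e-08). Ireb2, the other regulatory protein, was at 14.8 and 12.9 FPKM in GV, 11.5, 12.8 and 7.80 FPKM in MII, and 8.94 and 11.4 FPKM in MII+BYBX (MII minus GV, limma adjusted p = 0.2). Fbxl5, the iron-sensing ligase that degrades Ireb2, was lower in MII by -0.94 (limma adjusted p = 0.0046), and without GV replicate 1 by -0.61. It was instead called higher in MII with the same total (0.84, limma adjusted p = 0.013) and with median centring (1.36, limma adjusted p = 0.00034).

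Uptake of iron was represented by few transcripts and export by almost none. Tfrc, the transferrin receptor, did not exceed 1.43 FPKM in any library and was not tested, and only 4 of 13 uptake genes were. Slc11a2, an importer of ferrous iron, had means of 16.8 FPKM in GV, 1.45 FPKM in MII and 6.5 FPKM in MII+BYBX and a difference of -2.85 between MII and GV (limma adjusted p = 7.2e-08). Among the metalloreductases, Steap4 was lower in MII by -2.21, a call lost with the same total (-0.64, limma adjusted p = 0.1) and turned in sign by median centring (0.10). Steap2 was lower by -1.06, but higher by 0.52 with the same total (limma adjusted p = 0.041) and by 1.24 with median centring (limma adjusted p = 0.00012). Mcoln1, a lysosomal channel, did not pass the test (limma adjusted p = 0.73). None of the 7 export genes was tested, and Slc40a1 (ferroportin, the iron exporter) did not exceed 0.0762 FPKM. Hamp, the hormone hepcidin, was the one gene of the list called higher in MII, from a low level. It was at 0.686 and 0.816 FPKM in GV, 1.89, 2.90 and 4.29 FPKM in MII, and 4.78 and 1.94 FPKM in MII+BYBX, a difference of 1.16 (limma adjusted p = 0.0024) that without GV replicate 1 was 1.11 (limma adjusted p = 0.052). In MII+BYBX it was also higher than in GV, by 1.24 (limma adjusted p = 0.0046). Its GV values lay under the 1 FPKM of the filter, so Hamp was tested only through the groups where it was higher. The filter thus favoured this direction in these p-values. With no filter set, MII against GV gave a limma adjusted p of 0.033. Bmp6, a growth factor that raises hepcidin in liver, was lower in MII by -2.28, and Neo1, a receptor, did not pass the test (limma adjusted p = 0.64).

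Iron-sulphur cluster and haem genes made up most of the tested list and spanned the widest range. Of 16 tested mitochondrial genes, 14 were called lower in MII against GV and 11 called higher in MII+BYBX against MII, beside the same 88.3% and 65.2% of all entries. Isca1, which assembles clusters in mitochondria, was at 305 and 218 FPKM in GV, 2.93, 1.88 and 4.38 FPKM in MII, and 61.8 and 59.9 FPKM in MII+BYBX. Its difference of -6.04 between MII and GV (limma adjusted p = 5.8e-10) was beyond that of Fth1. Iscu, the scaffold on which clusters are built, fell to a mean of 38.0 FPKM from 97.5 FPKM (-1.35), and Nfu1, which hands clusters on, to 44.6 FPKM from 141 FPKM (-1.68). With libraries set to the same total Iscu was instead called higher in MII (0.51, limma adjusted p = 0.026), and Nfu1 was not called (0.18, limma adjusted p = 0.52). Nfs1, the sulphur donor, and Fdx1, a ferredoxin, did not pass the test (limma adjusted p = 0.18 and 0.68). With the same total both were called higher in MII (1.47 and 1.73, limma adjusted p = 4.3e-05 and 5.8e-05). The Fdx1 means were 64.2 FPKM in GV and 60.2 FPKM in MII.

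Of 10 tested cytosolic cluster genes, 9 were called lower in MII against GV (88.3% of all entries) and 8 called higher in MII+BYBX against MII (65.2% of all entries). Nubp2, a scaffold for cytosolic clusters, was at 116 and 93.0 FPKM in GV, 0.722, 0.921 and 1.07 FPKM in MII, and 22.8 and 36.1 FPKM in MII+BYBX, a difference between MII and GV of -5.79 (limma adjusted p = 4e-10). Bola2, a partner of glutaredoxins, was lower by -4.52 and Ciapin1, an electron donor of cluster assembly, by -0.98. Ciapin1 was instead called higher in MII with the same total (0.86, limma adjusted p = 0.0013) and with median centring (1.32, limma adjusted p = 0.00011). Ciao2b, a targeting factor of the same pathway, did not pass the test (limma adjusted p = 0.29).

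All 11 tested genes of haem synthesis and breakdown were called lower in MII against GV (88.3% of all entries), and 10 were called higher in MII+BYBX against MII (65.2% of all entries). Urod, an enzyme late in haem synthesis, had means of 68.5 FPKM in GV, 1.09 FPKM in MII and 16.2 FPKM in MII+BYBX (MII minus GV -5.06). Hmox2, the constitutive haem oxygenase that frees iron from haem, was lower by -4.40, and Alas1, which catalyses the first step of haem synthesis, by -2.18. The call of Alas1 was lost with the same total (-0.38, limma adjusted p = 0.14), and median centring turned its sign (0.12). Of all 53 tested genes of the list, 4 (Glrx5, Isca1, Nubp2 and Urod) had a lower difference between MII and GV than Fth1, and 14 a lower one than Ftl1. These counts depend on the 1 FPKM added to each value. With 0.1 FPKM added, Hmox2 (-5.49) and Bola2 (-5.30) also had a lower difference than Fth1 (-5.02). Of the 26 iron genes that the rule for names took from the list, 15 had a difference of the other sign between MII and GV with libraries set to the same total and 18 with median centring.

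**Figure D4:**
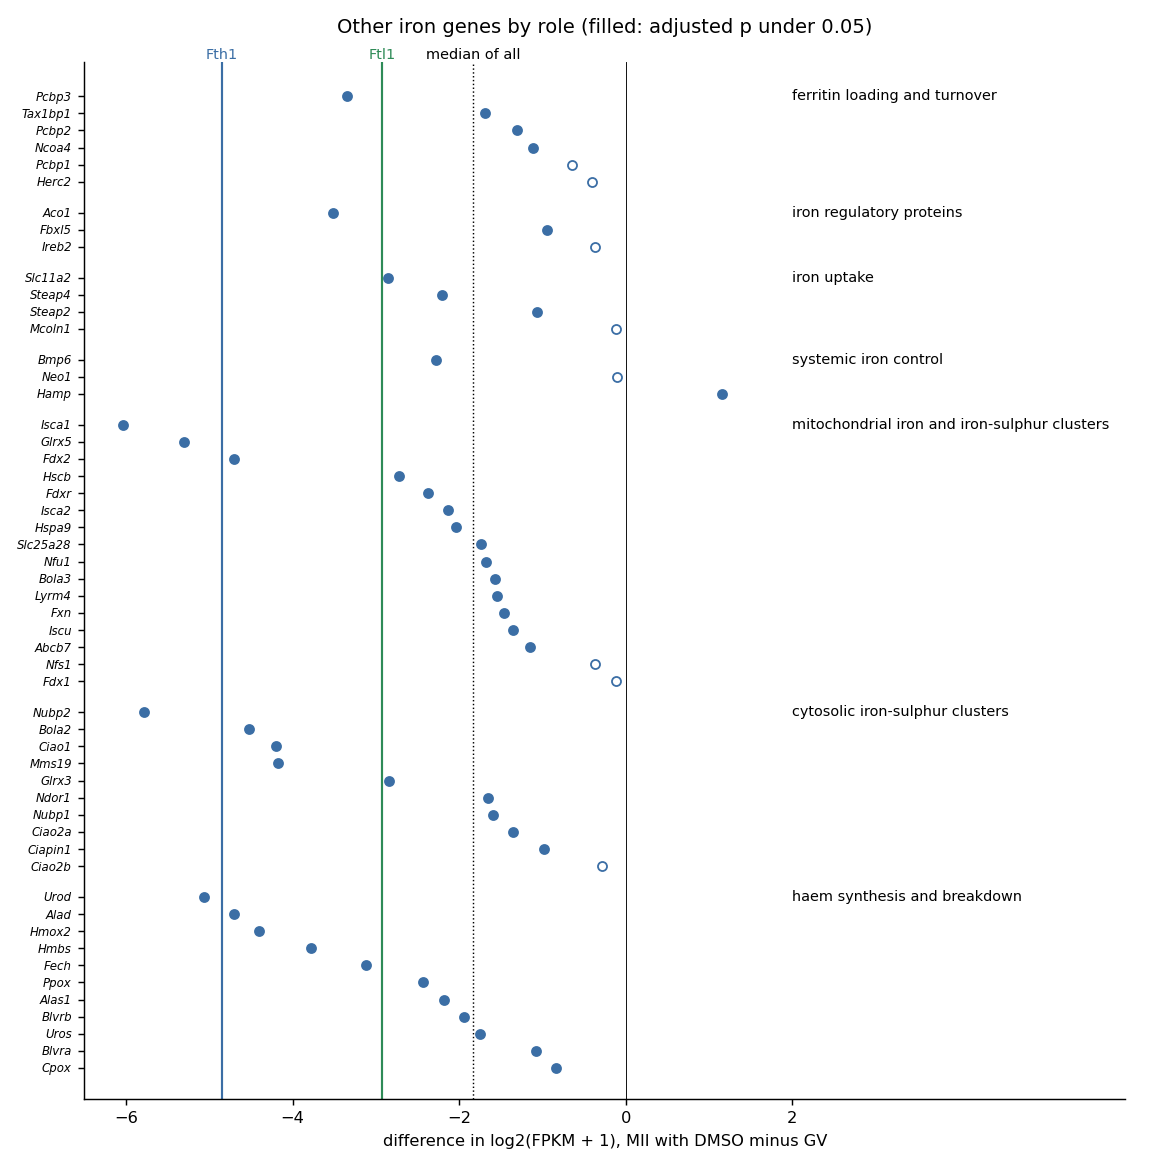
Difference in log2(FPKM + 1) between MII with DMSO and GV (horizontal axis) for the tested genes of the iron list, by role. Filled points have a limma adjusted p under 0.05, open points do not. Vertical lines mark Fth1 (-4.85), Ftl1 (-2.93), the median of all tested entries (-1.83, dotted) and 0, and Hamp (1.16) is the one filled point to the right of 0.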

How the data were processed

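Each of the 7 Smart-seq2 libraries was deposited by the authors as FPKM per gene. Per the methods and the submitters' processing notes, reads were trimmed (Trim Galore 0.6.7) and aligned to mm10 (HISAT2 2.2.1), and uniquely mapped reads were quantified with Cufflinks 2.2.1 on UCSC gene models. FPKM were then scaled by the ERCC spike-in, and batches were aligned on their own GV samples, with factors not given in the sources used here. Cufflinks keeps no whole reads, so depth is unknown and precision is that of 2 or 3 libraries. Of 25912 entries, 4 were left out because 1 library holds an error mark in place of a value. Values were analysed as log2(FPKM + 1), which understates changes of low genes, for entries whose mean of group means reached 1 FPKM. One limma 3.58.1 model (R 4.3.3, intensity trend) held all 7 libraries with 4 residual degrees of freedom. Calls had a Benjamini-Hochberg adjusted p under 0.05. The step was also run on simulated data in which few entries changed. That run does not cover a shift of most entries, as seen here.

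The members and lists were chosen with earlier results of these data known. Named are the members, other ferritin-family entries, the 5 profiles nearest to each member, and, per role of the iron list, the 3 most abundant tested genes and those not called or called against the prevailing direction in MII against GV. Genes within 100 kb, genes with the iron-responsive letters and the iron genes beyond Fth1 were added after values were seen. One transcript with these letters is not reported here. Sequences come from GENCODE vM21 on GRCm38 and were handled in Python 3.11.15 with Biopython 1.88. For Ftdc1, Ftdc2, Fth1 and Ftl1 the transcript with the RefSeq accession was used. Shares over tested genes use the longest coding transcript per gene (8842 of 9154 tested names matched, 96.6%). Alternatives were adding 0.1 FPKM in place of 1, a filter at 5 FPKM, no filter, libraries set to the same total or centred on their median, a fit of only the compared groups, a replicate block, no trend, no repeated names, and leaving out each library.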

Additional observations from a re-analysis of the deposited data

How the results depend on the processing

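Scaling was the choice that moved most values. With libraries set to the same total, the difference of Fth1 between MII+BYBX and GV was -0.80, and with median centring -0.76, both no longer called. For Ftl1 median centring gave -0.63 (MII minus GV) and 0.75 (MII+BYBX minus MII), no longer called, and the difference between MII+BYBX and GV turned to 0.08 (same total) and 0.12 (median centring). That last difference (-0.90) was called with a filter at 5 FPKM (limma adjusted p = 0.037), with only the 2 groups compared (0.017) and with the replicate block (0.027). Entries called lower in MII than in GV were 49.5% (same total) and 26.7% (median centring). Those higher in MII+BYBX than in MII were 31.3% (no filter), 39.9% and 18.4%, and those lower in MII+BYBX than in GV 45.1% (no filter), 13.3% and 13.6%. Iron genes called lower in MII than in GV were 28 (filter at 5 FPKM), 27 (same total) and 16 (median centring). Those higher with BYBX were 21 (filter at 5 FPKM) and 12 (median centring), and those lower in MII+BYBX than in GV 23 (filter at 5 FPKM), 6 and 6. The iron counts with the same total or median centring are out of the same 53 tested genes. The filter at 5 FPKM tests fewer iron genes and no filter changes the set too. With that filter 5508 entries were tested, of which 87.9%, 66.9% and 68.6% were called in the 3 comparisons. Its lower iron counts thus go with fewer genes tested. Median centring removes the shift of the median entry by construction. Ftdc1 was at -6.80, 5.64 and -1.16 with the same total and at -6.22, 5.09 and -1.13 with median centring in the 3 comparisons.

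Leaving out 1 library at a time, the difference of Fth1 ranged from -5.05 to -4.71 (MII minus GV), from 2.70 to 3.44 (MII+BYBX minus MII) and from -2.15 to -1.41 (MII+BYBX minus GV), and that of Ftl1 from -3.31 to -2.66, from 1.67 to 2.41 and from -1.27 to -0.54. The log2 ratio of Ftl1 to Fth1 differed by 1.48 to 2.39, by -1.51 to -0.60 and by 0.86 to 0.89. The percent of entries called ranged from 78.8 to 89.0, from 55.4 to 66.2 and from 51.6 to 69.6, and the iron genes called from 41 to 44, from 31 to 35 and from 32 to 38. A group left with 1 library is assumed to vary like the others.

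Named iron genes whose difference between MII and GV took the other sign with the same total were Pcbp1 (1.23), Pcbp2 (0.53), Ncoa4 (0.72), Herc2 (1.23), Ireb2 (1.38), Fbxl5 (0.84), Steap2 (0.52), Mcoln1 (1.38), Neo1 (1.29), Iscu (0.51), Nfs1 (1.47), Nfu1 (0.18), Fdx1 (1.73), Ciapin1 (0.86) and Ciao2b (1.48). With median centring they were Pcbp1 (1.67), Pcbp2 (1.01), Ncoa4 (1.19), Herc2 (1.90), Ireb2 (1.94), Fbxl5 (1.36), Steap2 (1.24), Steap4 (0.10), Mcoln1 (2.18), Bmp6 (0.02), Neo1 (2.2), Iscu (0.96), Nfs1 (1.93), Nfu1 (0.62), Fdx1 (2.18), Ciapin1 (1.32), Ciao2b (2.01) and Alas1 (0.12). Of those listed for the same total, all but Pcbp1, Pcbp2, Ncoa4 and Nfu1 were called higher in MII than in GV. Of those listed for median centring, all but Pcbp2, Steap4, Bmp6, Nfu1 and Alas1 were. Leaving out 1 library, Mcoln1 ranged from -0.54 to 0.30, turning without GV replicate 1 (0.30) or MII replicate 2 (0.05), and Fdx1 from -0.27 to 0.09, turning without MII replicate 1 (0.09).

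Libraries with the same number deviated together from their group means in GV and MII (correlation across entries 0.487 and 0.282). They deviated apart in MII+BYBX and MII (-0.601 and -0.348) and in MII+BYBX and GV (-0.330). The last value is the same for both numbers by construction, because each of these groups holds 2 libraries. The numbers were therefore not taken to pair libraries. With the replicate block Fth1 was at -4.79, 3.01 and -1.78 and Ftl1 at -3.31, 2.41 and -0.90, and 84.5%, 57.2% and 64.8% of entries were called. A pairing of GV and MII+BYBX with crossed numbers, added after the data were seen, called 63.6% of entries and 35 iron genes lower with BYBX than in GV. The lack of stated scaling factors and of depth limits every level given here, and the copies of Ftl1 limit its values.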

Other observations

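Beside Fth1 and Ftl1, 7 tested transcripts held the letters of the iron-responsive element in their 5′ UTR, a set found by the search and seen with its values, and 6 of them are described. Ppia, a prolyl isomerase, was the most abundant of the 9, at 706 and 788 FPKM in GV, 44.9 to 110.9 FPKM in MII, and 348 and 276 FPKM in MII+BYBX. Eif2s1, a translation initiation factor, was lower in MII by -3.77 and Vti1b, a vesicle fusion protein, by -3.71. Ecd was lower by -0.59 (limma adjusted p = 0.039) and Mfsd14b by -0.81 (limma adjusted p = 0.022), and Vwa2 was at -0.48 (limma adjusted p = 0.088). Here 88.3% of all tested entries were called lower, with a median of -1.83. In MII Ecd, Mfsd14b and Vwa2 kept 64.5%, 54.4% and 65.6% of the GV mean. The median was 16.2% over tested entries with at least 1 FPKM in GV, so these transcripts differed less than most. Other scalings are not given for this set. The 9 transcripts with these letters thus ranged from -4.85 to -0.48, and the letters alone name no binding by a regulatory protein.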
